A study of Mus musculus with 8 samples.

Results

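DNA methylation was examined at 4 genes that sense fatty acids or commit them to oxidation: Ppara, Pparg, Ppargc1a and Cpt1a. The members are the HpaII sites (CCGG) that were listed in all 8 samples inside a fixed window around each gene. In mm9 coordinates the windows were chr15:85555000-85640000 for Ppara (83 sites), chr6:115300000-115445000 for Pparg (54 sites), chr5:51840000-51950000 for Ppargc1a (28 sites) and chr19:3315000-3390000 for Cpt1a (84 sites). Together they hold 249 of the 1310003 sites listed in every sample. The windows were set by position alone, so no methylation value entered the choice of a site.

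The DNA came from liver of C57BL/6J mice on 1 of 2 diets, a high-fat diet with lingonberries (4 samples) or the high-fat diet alone (4 samples, HFD below). All 8 samples share the strain and the high-fat base diet, and the comparison asks whether the berries changed methylation on that background. There was no group on ordinary chow, and age, sex, feeding time and berry dose are not given in the labels. The labels name liver tissue with no cell sorting, so hepatocytes and the other liver cells were measured together, and a change in cell composition and a change within cells cannot be told apart. Every mean ± SD is over the 4 samples of a diet. All 8 files carry the same flowcell and lane in their names, and batches of extraction or library preparation are not given.

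Ppara encodes the nuclear receptor that switches on fatty acid oxidation and ketogenesis in the fasting liver, after binding fatty acids and pairing with an RXR receptor. Pparg encodes its relative that drives fat storage and is best known from adipocytes, although it also rises in fatty liver. Ppargc1a encodes PGC-1alpha, a coactivator that docks on such receptors and raises mitochondrial and gluconeogenic genes. Cpt1a encodes the liver form of carnitine palmitoyltransferase, which loads long-chain fatty acids onto carnitine at the outer mitochondrial membrane, and it is a classic Ppara target. Methylation of CpG-rich promoters commonly accompanies silencing, and most promoters of active genes are unmethylated.

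The promoter sequences are shown because their CCGG sites (capitals) are the only letters the assay can read there. They are RefSeq sequences in GRCm38.p6 coordinates, 250 bases upstream of the start, 5′ to 3′ on the strand of the gene. For Cpt1a the 30 bases that hold its 2 CCGG are given, which lie just after the start.
Ppara, chr15:85735526-85735775, plus strand: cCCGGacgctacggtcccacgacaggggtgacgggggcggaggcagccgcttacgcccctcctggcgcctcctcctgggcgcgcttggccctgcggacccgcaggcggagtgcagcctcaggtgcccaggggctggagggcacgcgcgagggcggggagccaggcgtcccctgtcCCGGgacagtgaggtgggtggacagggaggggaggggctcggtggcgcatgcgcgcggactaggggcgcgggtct
Pparg, chr6:115360894-115361143, plus strand: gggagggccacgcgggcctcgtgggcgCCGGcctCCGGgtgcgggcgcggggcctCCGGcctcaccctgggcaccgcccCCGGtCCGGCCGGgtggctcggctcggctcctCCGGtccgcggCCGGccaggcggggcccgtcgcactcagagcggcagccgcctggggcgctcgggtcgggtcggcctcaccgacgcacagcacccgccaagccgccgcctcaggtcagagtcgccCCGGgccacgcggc
Ppargc1a, chr5:51567726-51567975, minus strand: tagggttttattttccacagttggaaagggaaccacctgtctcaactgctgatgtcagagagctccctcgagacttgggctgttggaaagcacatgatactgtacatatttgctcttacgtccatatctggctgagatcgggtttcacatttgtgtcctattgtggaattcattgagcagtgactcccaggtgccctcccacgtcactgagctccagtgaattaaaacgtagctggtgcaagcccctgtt
Cpt1a, chr19:3323316-3323345, plus strand: ctcgcccgccCCGGcCCGGactccgctcgc

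The printed stretches differ in base composition, with a G+C content of 76.4% for Ppara, 82.4% for Pparg, 48% for Ppargc1a and 86.67% for the short Cpt1a stretch. CCGG reads the same on both strands and occurred in 52.8% of the 32851 promoter windows of 300 bases in the RefSeq table. The Pparg window held 10 CCGG (9 of them in the stretch shown) and the Ppargc1a window held 0. The listed sites are in mm9, so windows were tied to them by the spacing of CCGG and by the running site numbers in the files, with no conversion of coordinates. The Pparg window had 1 place on its chromosome, at listed sites 115310941, 115311036, 115311150 and 115311167. Of the other Pparg windows in the table, 1 held 2 CCGG and 1 held 0. The Ppara and Cpt1a windows held 2 CCGG each, too few to be assigned by the rule used, which asked for 3. Their spacing of 174 bp (Ppara) occurred at 33 places on chromosome 15 and 1 place in the locus (85565959 and 85566133), and that of 5 bp (Cpt1a) at 21 places on chromosome 19 and 1 place in the locus (3323328 and 3323333). Gene structure in mm9 was not used here, so exons and introns are not named for the listed sites.

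HELP-tagging counts short tags from ends cut by HpaII, which needs an unmethylated CpG in CCGG, and sets them against MspI, which cuts CCGG in either state. The deposited m-score turns the ratio into an angle scaled from 0 (no HpaII tag, methylated) to 100 (no MspI tag, unmethylated). HpaII tags per site were recovered from the m-score and the deposited conf signal, and 96.6% to 97.1% of the values above 0 were whole within 0.02. The lingonberry samples held 6121989 to 16076961 HpaII tags and the HFD samples 5877080 to 7428108, so the deepest libraries lie in 1 diet. The 4 loci received 2110.6 to 5291.5 tags per lingonberry sample and 1940.3 to 2491 per HFD sample. The MspI tags were the same reference scaled to each sample, so a score stands relative to the rest of its own sample. Over all sites with at least 10 MspI tags the mean m-score was 28.5 ± 0.40 with lingonberries and 29.8 ± 0.61 on HFD, and the lingonberry samples were all lower.

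The 4 loci differed widely in level. Ppara and Cpt1a were among the least methylated stretches of the liver genome, whereas Ppargc1a sat near the middle. Over sites with at least 10 MspI tags (65, 39, 21 and 66 sites for Ppara, Pparg, Ppargc1a and Cpt1a), the median m-score of a site was 60.9 at Ppara, 29.6 at Pparg, 9.11 at Ppargc1a and 65.3 at Cpt1a, against 17.1 over all such sites. Ranked among 21558 tiles of 100 kb, the locus means stood at percentile 98.4 for Ppara, 97.6 for Cpt1a, 79.9 for Pparg and 44.8 for Ppargc1a. Sites below 25, at the methylated end, made up 20% of the Ppara sites, 28.8% at Cpt1a, 48.7% at Pparg and 66.7% at Ppargc1a, against 58.7% in the genome. Sites at 75 or above made up 21.5%, 28.8%, 15.4% and 9.52% in the same order, against 11.7%. Of all 249 sites, 24 had no HpaII tag in any sample (3 at Ppara, 11 at Pparg, 5 at Ppargc1a and 5 at Cpt1a).

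At Ppara, Pparg and Cpt1a a large share of the HpaII tags came from a dense block of sites with high m-scores. At Ppargc1a it came from a looser run of 4 sites. The block was taken, after the values were seen, as the run of sites with gaps of at most 700 bp around the sites whose spacing matches the promoter (Ppara, Pparg and Cpt1a) or, at Ppargc1a, around the site with the most tags. Ppara and Cpt1a had further dense runs outside it, among them the clusters at Ppara 85576396 (58.6 ± 6.40 with lingonberries and 59.1 ± 5.50 on HFD), Cpt1a 3321084 (69.9 ± 6.96 and 65.5 ± 7.82) and Cpt1a 3389087 (63.3 ± 2.19 and 61.2 ± 4.04). The block spanned 1945 bp at Ppara (17 sites), 1361 bp at Pparg (13 sites), 1462 bp at Ppargc1a (4 sites) and 4146 bp at Cpt1a (24 sites). These short runs held 46.5%, 70.5%, 63.8% and 65.7% of the HpaII tags of their loci. At Ppargc1a the choice of the most heavily tagged site favours a high share and level, so neither is a separate result. The share held by such runs elsewhere in the genome was not computed. Over the genome, clustered sites (at least 5 listed neighbours within 500 bp) averaged 70.1 ± 0.92 with lingonberries and 68.1 ± 1.19 on HFD. High scores at dense sites are thus not particular to these loci. No site with at least 10 MspI tags inside a block fell below 25, and the lowest was 34.6 at Pparg. Outside the blocks, 13 of 50 such sites at Ppara, 19 of 27 at Pparg, 14 of 18 at Ppargc1a and 19 of 44 at Cpt1a were below 25.

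**Figure D1:**
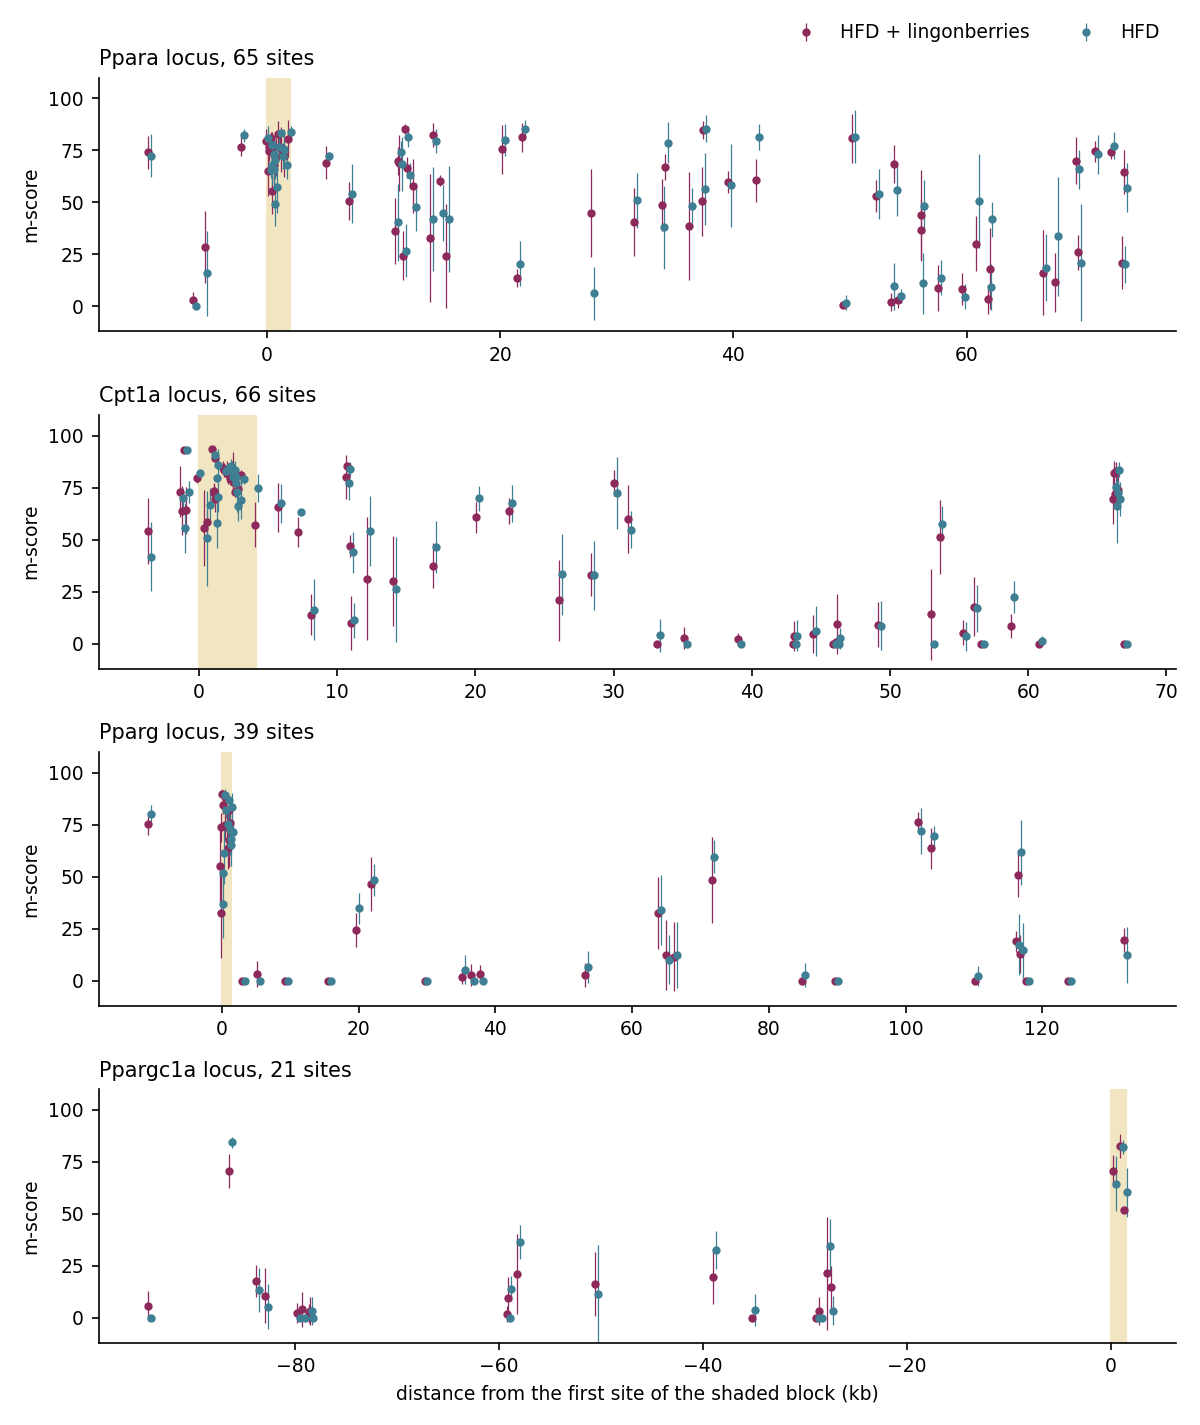
The m-score of each site (y axis, 0 methylated to 100 unmethylated) is plotted against its distance in kb from the first site of the shaded block, for sites with at least 10 MspI tags in the 4 loci. Points are diet means and vertical lines the SD over 4 samples. In every locus the shaded block is high, though at Ppargc1a it was placed around the site with the most tags. Ppara keeps intermediate sites along its length whereas most sites of Ppargc1a outside the block are near 0.

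No locus differed between the diets beyond the spread between samples. The test was limma on the mean m-score of each locus, fitted with all tiles and adjusted by Benjamini-Hochberg over 21562 rows. Background was 0% of rows called at an adjusted p below 0.05 and 18.2% at an unadjusted p below 0.05 (3932 rows), and none of the 4 loci was among either. Groups that did not overlap, lower with lingonberries, were found in 9.6% of rows and, higher, in 0.172%, and in none of the 4 loci.

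At Ppara the locus means were 51.2, 51.5, 53.8 and 53.4 with lingonberries and 51.5, 51.6, 53.9 and 53.6 on HFD. Both diets thus held 2 lower and 2 higher samples, and the groups overlapped. The difference, lingonberry minus HFD, was -0.19 (95% interval -2.29 to 1.91, limma adjusted p = 0.924). Pparg had 36.2, 33.3, 35.5 and 35.3 with lingonberries and 33.5, 35.4, 36.9 and 36.7 on HFD. The groups overlapped, with a difference of -0.55 (-2.80 to 1.70, limma adjusted p = 0.780). Ppargc1a had 20.2, 19.7, 18.1 and 24.0 with lingonberries and 23.2, 19.8, 23.7 and 19.0 on HFD. This locus has the fewest sites and the widest interval, with a difference of -0.95 (-4.55 to 2.64, limma adjusted p = 0.760). Cpt1a had 49.5, 49.9, 52.4 and 49.6 with lingonberries and 51.5, 50.7, 49.5 and 50.2 on HFD. Its highest sample was on lingonberries and its lowest on HFD, and the difference was -0.15 (-2.10 to 1.81, limma adjusted p = 0.938).

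**Figure D2:**
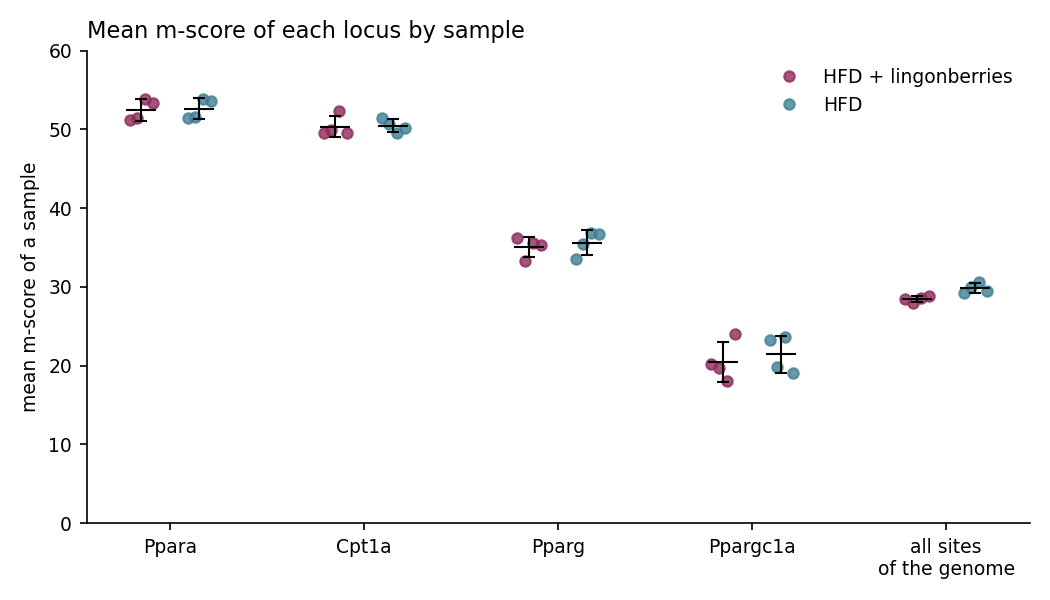
Mean m-score of each sample (y axis, 0 to 100 scale, drawn to 60) at the 4 loci and over all sites of the genome. Dots are samples, horizontal bars the mean and error bars the SD of 4 samples, and the diets overlap at each locus while over all sites the lingonberry samples (mean 28.5) lie below the HFD samples (mean 29.8).

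The genome as a whole leaned lower with lingonberries on this score, with 85.3% of tiles lower, a median difference of -1.62 and 10th to 90th percentiles of -4.43 and 0.33. All 4 locus differences lie inside those percentiles, and all 4 intervals include both 0 and the tile median. With the genome mean of each sample taken off, a setting added after seeing the data, the differences became 1.17 at Ppara, 0.82 at Pparg, 0.41 at Ppargc1a and 1.22 at Cpt1a. The sign of these small differences turned at all 4 loci under this setting, and no direction is read from them.

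**Figure D3:**
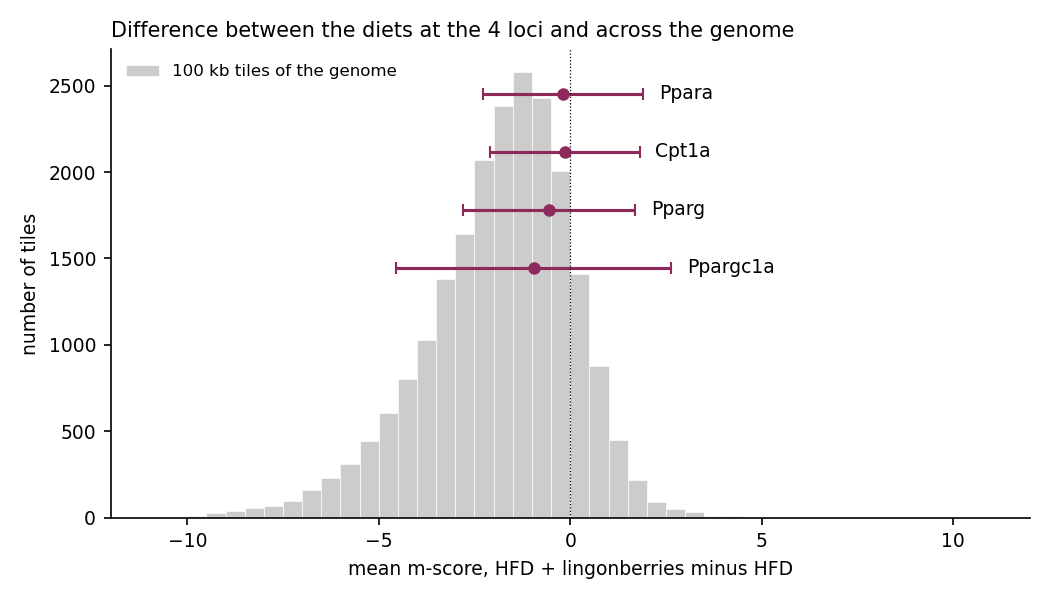
Histogram of the difference in mean m-score (x axis, HFD + lingonberries minus HFD, score units) over 100 kb tiles of the genome (y axis, number of tiles), with the 4 loci as points and 95% intervals at arbitrary heights. The tiles centre on -1.62 and each locus interval covers 0.

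HpaII tags per 1000000 tags of a sample, which do not use the MspI reference, gave a similar account of the loci. Ppara received 105, 108, 114 and 117 tags per 1000000 with lingonberries and 103, 109, 112 and 106 on HFD (mean 110.8 ± 5.52 and 107.5 ± 3.80). Pparg received 60.5 ± 5.09 and 60.4 ± 5.02, and Cpt1a 159.6 ± 11.9 and 157.3 ± 9.21. Ppargc1a had the least, 9.46, 8.33, 10.5 and 10.9 with lingonberries and 12.4, 11.8, 11.6 and 8.77 on HFD. The groups overlapped at all 4 loci. The difference of the mean log2 values, lingonberry minus HFD, was 0.043, 0.0032, -0.18 and 0.020 for Ppara, Pparg, Ppargc1a and Cpt1a. These sums have no test of their own.

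Ppara, the fasting receptor, was the locus with the broadest low methylation. Cut into 5 equal stretches of 17 kb, its mean m-score went from 68.3 ± 1.04 (lingonberry) and 65.6 ± 1.09 (HFD) in the first stretch to 34.9 ± 4.70 and 39.5 ± 6.66 in the last. The first stretch, where the groups did not overlap (the only one of 20 such stretches over the 4 loci, with no share over the genome computed), holds the block at 85565256 to 85567200.

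Over the 15 block sites with at least 10 MspI tags, the mean m-score was 75.4, 74.9, 73.6 and 73.0 with lingonberries and 72.9, 71.5, 70.6 and 69.9 on HFD. All lingonberry samples were higher, by a narrow margin. The difference was 2.99 with SDs of 1.12 and 1.30, and as the block was defined after seeing the values it has no test and no share over the genome. The rest of the locus overlapped, at 45.9 ± 2.07 and 47.1 ± 2.02.

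The same 17 sites formed a cluster by a rule applied to the whole genome (5 or more sites, each at most 500 bp from the next, 29006 clusters). This rule set no MspI minimum. Averaged over all 17 sites, the m-scores were 73.6, 75.3, 70.2 and 74.9 with lingonberries and 69.5, 67.2, 71.1 and 71.5 on HFD. Here the groups overlapped, through the third lingonberry sample, and the difference of 3.69 (-0.10 to 7.49) did not pass (limma adjusted p = 0.715). The 17 sites include 85566852, with only 4 MspI tags. There the third lingonberry sample had no HpaII tag and an m-score of 0, as had the first and second HFD samples. None of the 8 clusters in the loci passed, and 0% of all clusters did. By m-score none of the 8 had groups that did not overlap, against 2.89% of all clusters higher and 1.08% lower with lingonberries, and 7% of all clusters had an unadjusted limma p below 0.05. Factors for local site density, which compare clustered sites with other unmethylated clustered sites of the same sample, brought it to 1.94.

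In HpaII tags the Ppara cluster separated the diets, with 53.6, 54.1, 52.7 and 56.2 tags per 1000000 with lingonberries against 49.4, 47.6, 45.9 and 46.4 on HFD. All lingonberry samples were higher, as they were in 4.29% of all clusters, and the opposite order, found in 1.06% of all clusters, occurred in none of the 8 here. The log2 ratio on tags per 1000000 plus 0.5 was 0.19 ± 0.055 (SE), with an unadjusted limma p of 0.00629, and 10.7% of all clusters had such a p below 0.05. It did not pass the adjustment over all clusters (limma adjusted p = 0.431), and the median log2 ratio of all clusters was 0.065.

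Within the block the site differences had both signs, and whether the sites differ from each other in this was not tested. The site with the most tags, 85565575, had 133, 80, 33 and 100 HpaII tags with lingonberries and 35, 42, 20 and 58 on HFD, where the libraries were mostly shallower. Its m-scores were 78.6, 78.0, 68.7 and 81.7 against 66.5, 73.2, 55.2 and 77.4. The groups overlapped, with means of 76.7 ± 5.60 and 68.1 ± 9.67. Nearby, site 85565703 had 76.6 ± 5.21 and 66.3 ± 7.53 (difference 10.2), and site 85565744 had 80.9 ± 3.11 and 73.1 ± 6.97 (difference 7.77). At a lower coordinate, site 85565527 leaned the other way, at 74.9 ± 4.77 and 77.7 ± 2.96. The pair whose spacing matches the printed Ppara promoter, 85565959 and 85566133, had 68.2 ± 11.7 and 57.5 ± 12.6 at the first site and 71.9 ± 8.93 and 76.4 ± 5.85 at the other. None of these sites passed (limma adjusted p = 0.873 or above).

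Outside the block, unmethylated and intermediate Ppara sites were interleaved. Site 85563127, just before the block in coordinate order, had 76.8 ± 4.54 with lingonberries and 82.3 ± 3.31 on HFD. Site 85580231 had m-scores of 63.0, 58.4, 57.8 and 62.2 with lingonberries and 37.5, 64.5, 35.5 and 41.9 on HFD. The lingonberry samples were close together and 1 HFD sample lay above them all, so the difference of 15.5 overlapped (limma adjusted p = 0.873). Site 85607295 had 49.8, 71.3, 53.7 and 67.6 with lingonberries and 82.7, 89.4, 74.3 and 80.0 on HFD. Here all lingonberry samples were lower, by a mean of 21.0, on 3 to 17 HpaII tags a sample, and it had the smallest unadjusted p of the 249 sites (0.00816, limma adjusted p = 0.873). It lies outside the rule for named sites and was chosen after its values were seen. Sites 85596893 and 85621472 had 40.5 ± 16.4 and 36.7 ± 15.0 with lingonberries against 51.1 ± 13.2 and 48.2 ± 12.7 on HFD, with SDs larger than the differences.

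Pparg, the fat-storage receptor, kept its low methylation almost entirely in the promoter block. The 12 block sites with at least 10 MspI tags averaged 71.8 ± 2.85 with lingonberries and 70.4 ± 3.98 on HFD, and the 27 outside averaged 18.8 ± 0.83 and 20.2 ± 1.89. Only 1 site outside reached a mean of 75 over all samples, 115300278 near the edge of the window, with 75.5 ± 5.24 and 80.0 ± 4.61. The body of the locus was methylated, with means between 13.1 and 36.2 in the other 4 stretches of 29 kb.

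The 4 listed sites of the assigned Pparg promoter window (3 in the stretch printed above and 115311167 just after the start) averaged 69.9, 64.2, 65.9 and 75.9 with lingonberries and 64.0, 58.8, 69.1 and 77.3 on HFD. The highest and the lowest sample were both on HFD, and the difference of 1.71 was well within the spread (limma adjusted p = 0.911 over 6085 promoters placed the same way). Background was 0% of placed promoters called and 7.59% (462) at an unadjusted limma p below 0.05. These neighbours differed strongly in level. Site 115310941 was the most methylated, at 32.5 ± 21.5 and 36.8 ± 16.0, on 1 to 8 tags a sample. Site 115311036 had 73.7 ± 6.78 and 61.2 ± 14.8. Site 115311150 had 79.9 ± 4.08 and 81.8 ± 8.67, and site 115311167, 17 bp on, had 89.9 ± 2.31 and 89.5 ± 2.63.

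Across the whole Pparg cluster of 13 sites, the mean m-score was 73.7, 68.1, 73.3 and 74.5 with lingonberries and 68.2, 69.1, 71.0 and 76.9 on HFD. The groups overlapped, and the difference was 1.11 (-4.05 to 6.27, limma adjusted p = 0.930). Tags per 1000000 were 44.1 ± 3.93 and 41.2 ± 4.19, which also overlapped. The first site of the cluster, 115310906, had 73.7, 46.5, 64.8 and 35.8 with lingonberries against 51.8, 47.1, 53.0 and 55.8 on HFD, so the lingonberry samples spanned a far wider range around nearly the same mean. The site with the most tags, 115311776, had 150, 66, 46 and 117 tags with lingonberries and 46, 63, 50 and 63 on HFD. Its m-scores were 87.1 ± 2.94 and 86.8 ± 2.19.

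The remaining cluster sites lay between 63.7 and 84.3 in both diets. Site 115311258 had 84.3 ± 4.39 and 81.9 ± 3.56, site 115311601 had 75.1 ± 7.17 and 75.5 ± 5.36, and site 115311836 had 74.1 ± 9.95 and 72.9 ± 12.6. Sites 115312024 and 115312111 had 63.7 ± 9.85 and 67.5 ± 12.7 with lingonberries, against 65.4 ± 10.1 and 68.2 ± 6.80 on HFD. At the high-coordinate end, sites 115312209 and 115312266, whose spacing of 57 bp matches another Pparg promoter window (54 places on the chromosome, 1 in the locus, not assigned), had 82.2 ± 5.07 and 75.9 ± 8.11 with lingonberries and 83.4 ± 6.79 and 71.4 ± 5.90 on HFD. In the body, sites 115414904 and 115427582 leaned lower with lingonberries, at 63.6 ± 10.0 against 69.7 ± 4.77 and 50.9 ± 10.5 against 61.7 ± 15.7. Neither passed, nor did any cluster site (limma adjusted p = 0.873 or above).

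Ppargc1a, the coactivator, was the most methylated of the 4 loci and the thinnest in sites. Outside the block, 14 of 18 sites with at least 10 MspI tags were below 25, and these 18 sites averaged 12.5 ± 2.66 with lingonberries and 13.5 ± 2.37 on HFD. The printed promoter window holds no CCGG, so the assay does not read it and it could not be tied to the listed sites. No other start of Ppargc1a was examined, and whether a promoter of the gene lies in the block was not tested.

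The Ppargc1a block lies at 51943934 to 51945395 and holds 4 listed sites. Its most heavily tagged site, 51944946, had 45, 22, 32 and 36 tags with lingonberries and 29, 18, 18 and 19 on HFD, with m-scores of 82.7 ± 5.73 and 82.2 ± 3.33. Site 51944258 had 70.6 ± 7.55 and 64.6 ± 13.2. Site 51945395 was nearer the middle of the scale, at 51.9 ± 1.41 and 60.4 ± 11.6. The remaining site, 51943934, rested on 6 MspI tags and 1 to 7 HpaII tags a sample and had 51.7 ± 19.5 and 76.2 ± 7.12. The mean of the 3 sites with at least 10 MspI tags was 67.0, 67.6, 67.8 and 71.2 with lingonberries and 74.7, 72.8, 68.3 and 60.3 on HFD, so the HFD samples spread on both sides of the lingonberry samples.

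A solitary unmethylated site, 51857549, stood in the otherwise methylated low-coordinate part of the window. Its m-scores were 81.3, 62.4, 66.8 and 71.5 with lingonberries and 85.2, 86.3, 85.6 and 80.4 on HFD. Of the lingonberry samples 3 lay below all HFD samples, and the first, the deepest library, lay within them. The difference was -13.9 (limma adjusted p = 0.873), and tags per 1000000 were 1.01 ± 0.38 and 1.92 ± 0.30. It rests on 5 to 25 tags a sample.

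Cpt1a, the oxidation enzyme, had the largest share of sites at 75 or above among the 4 loci (28.8%). Its first stretch of 15 kb averaged 75.4 ± 1.17 with lingonberries and 74.5 ± 0.65 on HFD over 28 sites, none below 25. The next stretch averaged 44.9 ± 4.02 and 49.2 ± 3.12. The fourth stretch, 3360000 to 3374999, was almost fully methylated, with 3.71 ± 2.73 and 2.63 ± 2.37 over 8 sites, although it contains a cluster of 6 listed sites. In that cluster, 3368063 to 3369096, each of the 8 samples had 0 to 4 HpaII tags. The last stretch was mixed, because a cluster near the end of the window, 3389087 to 3389888, was again high for 5 of its 6 sites while site 3389888 had no HpaII tag in any sample.

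The most heavily tagged cluster of all 4 loci was Cpt1a 3324674 to 3326362, with 14 sites. Its m-scores were 81.4, 84.3, 79.4 and 82.6 with lingonberries and 80.7, 79.0, 79.5 and 82.8 on HFD. The groups overlapped, with a difference of 1.41 (-1.81 to 4.63, limma adjusted p = 0.843). Its tags per 1000000 were 76.0 ± 9.83 and 76.6 ± 4.02. The site with the most tags, 3325184, had 175, 97, 51 and 93 tags with lingonberries and 81, 81, 69 and 70 on HFD, with m-scores of 79.4 ± 2.12 and 82.5 ± 2.09. In the same cluster sites 3325469 and 3325537 leaned the other way, at 82.1 ± 3.43 against 72.7 ± 9.40 and 72.9 ± 2.56 against 66.0 ± 7.0. The last site, 3326362, had no MspI tag, so its score of 100 carries no information on methylation. It is still averaged into the cluster m-scores above, since clusters had no MspI minimum.

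The neighbouring Cpt1a cluster, 3322830 to 3324131, held sites named by the rule in each direction. Their opposite signs follow from that choice, and divergence between adjacent sites was not tested. Site 3324017 had m-scores of 71.5, 70.6, 77.2 and 74.2 with lingonberries and 79.3, 76.8, 81.3 and 80.8 on HFD. It was lower by 6.15 with a slight overlap of the groups (limma adjusted p = 0.873). Site 3324063, in the same cluster, had 70.9, 78.2, 73.5 and 67.9 with lingonberries and 60.8, 67.5, 40.4 and 63.9 on HFD. All lingonberry samples were higher there, by a mean of 14.5 (limma adjusted p = 0.873), and it was the only one of the 249 sites with that order, against a background of 0.66% of all sites. Without the third HFD sample, at 40.4, the difference was 8.59. The cluster mean was 67.1 ± 2.53 and 66.8 ± 6.84. The pair whose spacing matches the Cpt1a promoter fell in this cluster too, but site 3323328 had 2 MspI tags and is uninformative, and site 3323333 had 55.6 ± 18.3 and 50.6 ± 22.9 on 10 MspI tags.

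At higher coordinates, site 3326975 had 68.4, 42.3, 57.8 and 60.1 with lingonberries and 81.5, 77.0, 74.9 and 65.9 on HFD. The means differed by -17.7, the groups overlapped at 1 sample of each diet, and tags ranged from 5 to 19 a sample (limma adjusted p = 0.873). Site 3330131 had 50.6, 44.9, 58.1 and 61.1 with lingonberries and 63.6, 64.1, 63.6 and 62.0 on HFD. All lingonberry samples were lower, by a mean of 9.69, and the HFD samples had an SD of 0.92 (limma adjusted p = 0.873). With factors for local site density the difference at this isolated site shrank to -1.98.

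**Figure D4:**
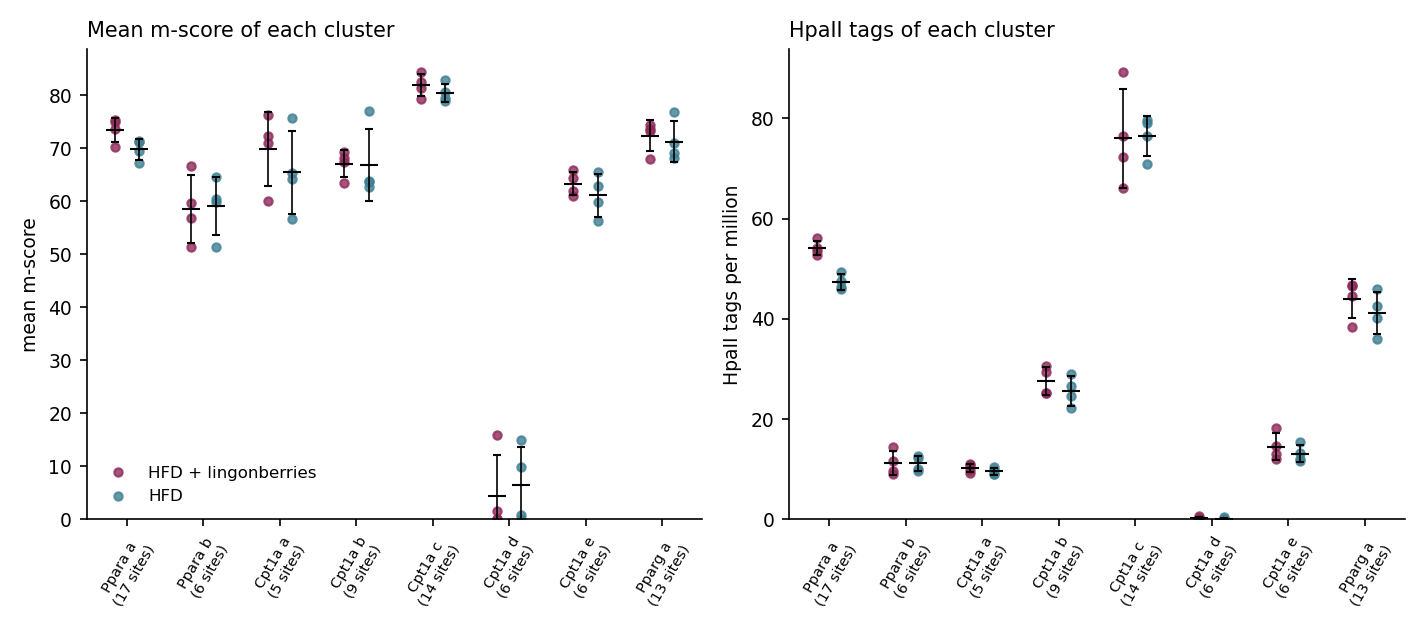
Mean m-score (left) and HpaII tags per 1000000 (right) of the 8 clusters in the loci, lettered in mm9 order within each gene, none in Ppargc1a. Dots are samples, bars the mean and error bars the SD of 4 samples, and on the right Ppara a (54.2 with lingonberries, 47.3 on HFD) is the cluster whose diets do not overlap, while Cpt1a d is near 0.

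Over single sites the 4 loci gave no call. With limma on the m-score, 0 of 249 sites passed at an adjusted p below 0.05, and the smallest adjusted p was 0.873. The background was 0.0134% of the 1310003 sites (176 called), 0.00947% lower and 0.00397% higher with lingonberries. At an unadjusted limma p below 0.05 there were 13 sites, 7 lower and 6 higher with lingonberries, against a background of 4.17%. Sites with all lingonberry samples below all HFD samples numbered 3, the 2 described above and Cpt1a 3381723, which had at most 2 tags a sample, against 1.3% of all sites. Neither share stands far from its background.

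Most of these sites were thinly covered. Only 91 of the 249 had both at least 10 MspI tags and a mean of at least 10 HpaII tags (33 at Ppara, 17 at Pparg, 3 at Ppargc1a and 38 at Cpt1a). Among those 91, the mean was lower with lingonberries at 46 and higher at 45, with differences from -17.7 to 16.0 and a median of -0.13, beside a median of 0.70 over the 213262 such sites of the genome. Unadjusted limma p values below 0.05 were found at 6 of them (background 6.08%). Groups did not overlap at 1 site that was lower, Cpt1a 3330131 (background 1.35%), and at 1 that was higher, Cpt1a 3324063 (background 1.88%). On log2 tags per 1000000, 0 of 93 sites with a mean of 10 tags passed, 4 had an unadjusted p below 0.05 (background 5.87%) and the smallest limma adjusted p was 0.849. The background there was 0.000449%, 1 of 222840 sites. The median standard error of the difference over the 91 sites was 4.73 score units, and how much of it comes from depth and how much from the spread between samples was not tested.

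Several of the site differences named above rest heavily on 1 sample. Without the third HFD sample the difference was 4.37 at Ppara 85565575 (8.65 with it), and without the first HFD sample it was 4.72 at Cpt1a 3325469 (9.35 with it). At Ppara 85596893 it was -2.41 without the first lingonberry sample (-10.5 with it), and at Ppara 85621472 it was -4.05 without the third (-11.5 with it). At Pparg 115311036 it was 6.82 without the second HFD sample (12.5 with it), and at Pparg 115427582 it was -5.87 without the third (-10.8 with it).

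**Figure D5:**
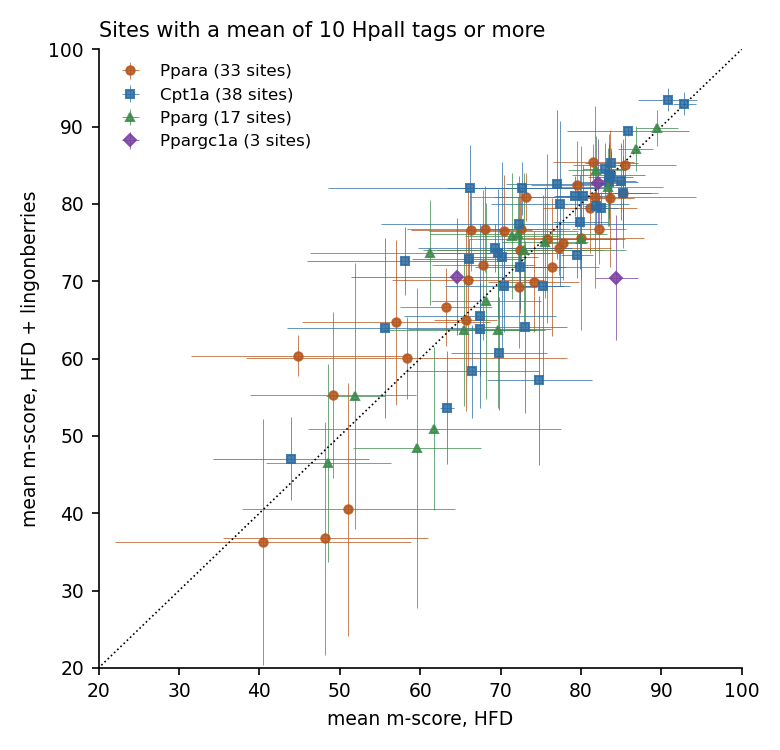
Mean m-score with lingonberries (y axis) against HFD (x axis) for the 91 sites with a mean of at least 10 HpaII tags, both axes from 20 to 100, with lines for the SD of 4 samples and the diagonal of equality. The points lie on both sides of the diagonal, 46 below and 45 above, and most SD lines cross it.

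By local density of sites, the diets overlapped in all 3 classes over the 4 loci. At clustered sites (at least 5 listed neighbours within 500 bp, 39 sites of the 4 loci), the mean m-score was 75.5 ± 0.69 with lingonberries and 73.5 ± 1.40 on HFD. At sites with 1 to 4 neighbours (75 sites) it was 45.1 ± 1.34 and 44.9 ± 0.85, and at isolated sites (77 sites) 28.6 ± 1.41 and 30.6 ± 1.45. The differences at the loci, 1.97, 0.15 and -1.97 from clustered to isolated, stand beside 1.95, -1.22 and -2.80 over all sites of the genome, so the middle class differed in sign, and no trend with density was tested. Over all sites of the genome, the lingonberry samples were all lower at isolated sites, and the groups overlapped in the other classes. Clustered sites occurred at 3 of the loci, with 73.9 ± 1.24 and 70.6 ± 1.71 at Ppara, 71.8 ± 2.85 and 70.4 ± 3.98 at Pparg, and 80.1 ± 2.26 and 78.9 ± 1.88 at Cpt1a. The groups overlapped at Pparg and Cpt1a. At Ppara all lingonberry samples were higher (72.7 to 75.1 against 68.4 to 72.4), with no test and no share over the genome. These 13 Ppara sites all lie in the block described above, so this is not a further result.

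The other genes of the pathway were read at their promoters where these could be placed. Of 61 listed genes (oxidation enzymes, ketogenesis, targets, receptors, coregulators and kinases), 16 had a promoter with enough CCGG to be tied to listed sites. None passed in either direction, and 0 of 16 had an unadjusted limma p below 0.05 (background 7.59%). Their means were lower with lingonberries at 6 and higher at 10, with a median difference of 1.26 beside 2.01 over all placed promoters. All were weakly methylated, with 11 at 75 or above and the other 5 down to 64.2. The median level over all placed promoters was 76.1, so this is not particular to the pathway.

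Among the oxidation enzymes, Acadm, the medium-chain acyl-CoA dehydrogenase, had 84.2 ± 2.17 with lingonberries and 83.1 ± 2.01 on HFD. Cpt2, the partner of Cpt1a on the inner mitochondrial membrane, had 78.0 ± 3.27 and 75.4 ± 1.53. Acads, the short-chain enzyme, had 66.3 ± 4.62 and 62.0 ± 3.68, and Hadh had 79.8 ± 4.16 and 79.9 ± 3.02. None of these pairs of groups was separated.

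Rxra and Rxrb, the partners with which both PPARs bind DNA, held the extremes of the list in opposite directions. Rxra had 84.0, 81.8, 89.6 and 59.8 with lingonberries and 54.1, 85.6, 82.1 and 54.7 on HFD, a difference of 9.69. Rxrb had 65.1, 82.1, 64.2 and 63.6 with lingonberries and 88.0, 60.1, 76.1 and 83.9 on HFD, a difference of -8.28. Within each gene both diets ranged over about the same wide interval (limma adjusted p = 0.712 and 0.677).

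Coregulators gave overlapping groups as well. Ncor1, a corepressor, had 78.3 ± 2.77 and 74.3 ± 2.29, the smallest adjusted p of the list at 0.661 (limma). Sirt1, the deacetylase that acts on PGC-1alpha, had 78.2 ± 1.00 and 76.1 ± 5.35. Tfam and Nrf1, which act downstream of PGC-1alpha in mitochondrial biogenesis, had 75.6 ± 4.54 and 76.8 ± 7.55 with lingonberries against 76.4 ± 2.77 and 75.4 ± 9.99 on HFD. Groups overlapped at all 16 promoters, where the background of separated groups was 4.82% higher and 0.247% lower with lingonberries.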

How the data were processed

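Per the labels' protocols, liver DNA was cut with HpaII and converted to sequencing tags, with no molecular identifiers named. The authors deposited 1 file per sample with, per the file headers, an m-score (a score from 0 to 100) and conf, a signal that is never negative. The submitters' processing notes name the build mm9 and CASAVA. For the tag aligner and the origin of the MspI reference, these sources name nothing. The HpaII tag number is conf times the sine of the m-score angle, and the MspI number conf times its cosine. Tags per 1000000 used the sum of the HpaII tags of a sample over the sites listed in all 8 samples. No count model was used, since the deposited values are scores.

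Sites listed in all 8 files were kept. Tests were limma 3.58.1 in R 4.3.3 (moderated, with a mean trend, no covariate) on every site, every 100 kb tile with at least 10 sites of 10 MspI tags plus the 4 loci, every cluster and every placed promoter, with Benjamini-Hochberg adjustment over the whole table and a threshold of 0.05. Log2 tags per 1000000 used a pseudocount of 0.5, which understates changes at low sites. The scripts were tested on simulated data. Promoters were placed by CCGG spacing within a chromosome. The use of site numbers for this, and of all RefSeq windows, was added after seeing the data. Of 6935 windows with at least 3 CCGG, 6085 were placed, and 99.8% of neighbouring pairs kept their order.

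Sites named are, per locus, those of the cluster holding the promoter, the site with most HpaII tags and, among sites with at least 10 MspI tags and a mean of 10 HpaII tags, the 3 with the smallest unadjusted p in each direction. Others were chosen after their values were seen. The members, the gene lists and the tests were chosen with earlier results of these data known. The tissue label could not be checked against marker genes. Alternatives covered the MspI minimum, shared tags, summed tags, factors for local site density, tile size, cluster gap, pseudocount, trend and each sample left out. Tags are not independent molecules, and p-values measure only the spread between these samples.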

Additional observations from a re-analysis of the deposited data

Results flagged for a closer look

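Within each diet, the highest and the lowest of the 4 samples were checked for a gap to the other 3 larger, relative to the range, than Dixon's 95% critical value. Of 90 groups tested over 45 results, 9 had such a sample. A rate of about 1 in 20 holds for independent, unselected groups. Here the named sites lie within the loci, and some within the clusters, that were also tested. Several were chosen for a small p, so no excess is read from the count. Of the 9 samples, 5 were the first HFD sample, 3 the third lingonberry sample and 1 the first lingonberry sample.

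At the Cpt1a locus the third lingonberry sample had a mean m-score of 52.4, with the other 3 at 49.5 to 49.9. In the methylated Cpt1a cluster at 3368063 the same sample stood at 15.9, with the others at 0 to 1.61, on 4 HpaII tags. In the Cpt1a cluster at 3322830 the first HFD sample had 77.1, with the others at 62.7 to 63.9.

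Among single sites, the first HFD sample was high at Ppara 85565744 (83.6, others 69.5 to 69.7). It was low at Cpt1a 3325469 (58.8, others 76.1 to 79.6) and at Pparg 115311150 (68.9, others 84.4 to 87.6). At Ppara 85596893 the first lingonberry sample was low, at 16.1 with the others at 45.8 to 50.4. Pparg 115312111 had a low sample in both diets, the third lingonberry sample at 48.5 (others 72.9 to 74.3) and the first HFD sample at 58.0 (others 71.5 to 71.7).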

How the results depend on the processing

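The number of sites and of clusters called in the 4 loci was 0 under every alternative run, and the smallest adjusted p over the alternatives was 0.487 for loci, 0.256 for named sites and 0.431 for clusters. The sign of the locus differences did not hold. At Ppara it turned to 2.00 with an MspI minimum of 50 tags, 0.77 with summed tags, 1.50 with factors for local site density and 1.17 after taking off the genome mean. The same settings gave 0.65, 0.37, 0.80 and 1.22 at Cpt1a and 2.17, 0.28, 0.63 and 0.82 at Pparg. At Ppargc1a, which has no site with 50 MspI tags and so no value there, density factors gave 0.73 and the genome mean 0.41, while summed tags gave -2.95 and an MspI minimum of 1 tag -1.40 (adjusted p = 0.506 and 0.707 by limma), beside -0.95. Leaving out 1 sample at a time gave -0.65 to 0.25 at Ppara, -0.83 to 0.19 at Cpt1a, -1.26 to 0.052 at Pparg and -2.13 to -0.15 at Ppargc1a. Density factors also turned Pparg sites 115300278 (0.66), 115311167 (-0.41), 115311776 (-0.45), 115311836 (-0.58) and 115414904 (0.89), and the clusters Cpt1a 3322830 (-0.31) and Pparg 115310906 (-0.36). On log2 tags per 1000000, Pparg 115312111 became 0.0030, Cpt1a cluster 3324674 -0.017 and Cpt1a cluster 3368063 0.085. Leaving out 1 sample moved Pparg 115310906 from -2.90 to 9.72, 115310941 from -11.97 to 2.93, 115311150 from -6.11 to 0.13, 115311167 from -0.75 to 1.18, 115311601 from -2.62 to 2.18, 115311776 from -0.80 to 1.43, 115311836 from -4.56 to 5.59, 115312024 from -6.41 to 1.57, 115312111 from -4.13 to 5.60 and 115312209 from -3.91 to 1.64. It moved Ppargc1a 51944946 from -1.75 to 2.75 and the clusters Cpt1a 3322830 from -1.12 to 3.67, Cpt1a 3368063 from -5.91 to 0.79 and Ppara 85576396 from -3.18 to 1.95. The cause of these turns was not tested. The Ppara cluster at 85565256 stayed between 2.83 and 4.79 in those fits. No paired analysis was possible because the labels give no replicate number or pairing shared by the diets, and a lane term has no contrast with all 8 files from the same flowcell and lane. Coverage was thin at single sites, as only 91 of the 249 had 10 MspI tags and a mean of 10 HpaII tags.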
